A study of Homo sapiens with 6 samples.

Results

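Molecular chaperones help other proteins to fold, keep them from aggregating and hand them on to membranes or to degradation. Hsp70 proteins (HSPA genes) bind exposed stretches of unfolded chains in cycles of ATP hydrolysis. J-domain proteins (DNAJ genes) bring them clients and stimulate that hydrolysis, and HSPH1, HSPA4 and HSPA4L serve as nucleotide exchange factors. Hsp90 proteins act late, on kinases and receptors that are already nearly folded. Hsp60 (HSPD1) with its lid Hsp10 (HSPE1) in mitochondria and the CCT ring in the cytosol enclose their clients in a chamber, and small heat shock proteins (HSPB genes) hold aggregating proteins without ATP. Part of the set is induced by heat through the transcription factor HSF1, and the members of the endoplasmic reticulum (ER) are induced by the unfolded protein response.

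The members were chosen by gene symbol from the authors' deposited table: HSPA, HSPB, HSPD, HSPE, HSPH and HSP90 genes, DNAJA, DNAJB and DNAJC genes, and the subunits CCT2 to CCT8 of the cytosolic chaperonin, without HSPBP1, HSPB11 and HSPBAP1. This gave 73 genes of the 15794 in the table, among them 13 HSPA, 4 HSPB, 5 HSP90, 3 HSPD, HSPE or HSPH, 4 DNAJA, 11 DNAJB, 26 DNAJC and 7 CCT genes. HSP90AB4P and HSP90B2P, whose symbols mark them as pseudogenes, met the rule and are counted. TCP1, the remaining subunit of the 8-subunit CCT ring, did not meet it and is described beside the others.

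Polyadenylated RNA was sequenced from eHAP cells, a haploid human cell line obtained by engineering HAP1, which traces back to a chronic myeloid leukaemia. Cells of the TFDP1 group (3 replicates, genotype labelled knockout) expressed Cas9 and received guide RNAs against TFDP1 on a plasmid with puromycin resistance. The control group (3 replicates, titled NC) is labelled wild-type with no knockout gene, and its protocol is otherwise the same. Both groups were selected with puromycin from 24 to 72 h, collected on day 5 and mixed with Drosophila S2 cells as a spike-in, and the labels call the replicates biological. The cells are a selected population, not named as a clone, and the labels give no share of cells that carried an edit. The product of TFDP1, called DP1, pairs with E2F factors to bind DNA at cell cycle genes.

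Levels, log2 fold changes and adjusted p-values below are taken from the authors' deposited table. It holds a mean level per gene as scaled read counts (CPM). Whether the scaling used the human reads or the spike-in is not stated. The table holds no value per replicate. The spread between replicates therefore enters only through the authors' p-values, and the depth of each library is unknown. The sign of a fold change has no stated direction. It is given relative to TFDP1, whose own log2 fold change in the authors' deposited table was 1.17 at 226 CPM (adjusted p = 1.08e-283): "positive" below means more RNA where TFDP1 RNA was also higher, and "negative" means less. Which of the TFDP1 and control groups that was is not stated. An approximate standard error (SE) was computed for each gene as the absolute log2 fold change over the square root of the authors' likelihood ratio, and intervals are approximate 95% intervals from it. Of the markers of other cell types, 4 of 12 blood, 6 of 10 fibroblast and 5 of 9 epithelial genes were in the table. Together they summed to 21.1, 88.0 and 53.9 CPM, and PTPRC, COL1A2 and CDH1 were not among the genes analysed here. Of these markers 1 blood, 5 fibroblast and 3 epithelial genes were negative, led in level by SPARC (-3.47 at 59.0 CPM) and KRT18 (-0.52 at 40.0 CPM), and 1 blood gene was positive. Their part in the results below was not tested.

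Some of the promoters carry the sequence elements by which chaperone genes are known to be regulated, and these are shown because the genes that hold them can then be followed through the results. Searched were the 250 bases before each RefSeq start site (GRCh38.p14), on both strands and with overlapping matches allowed, for 65 of the 73 genes that have an entry (86 start sites). The heat shock element, to which HSF1 binds, was searched as GAA, TTC and GAA in this order, with 2 bases of any kind between neighbours. It was found at 6 of the 86 start sites (6.98%), those of DNAJB6, HSP90AA1, HSP90AB1, HSPA6, HSPA8 and HSPD1, against 0.441% of all 35116 start sites. For each gene 1 match is shown, in capitals and in the gene's own direction, within 30 bases. HSPA8, HSP90AB1 and HSPD1 hold a second match, which in HSPD1 overlaps the one shown and so runs into lower-case letters.
HSPA8: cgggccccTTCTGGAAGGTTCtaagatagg
HSPA6: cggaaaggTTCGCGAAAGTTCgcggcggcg
HSP90AA1: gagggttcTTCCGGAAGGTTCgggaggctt
HSP90AB1: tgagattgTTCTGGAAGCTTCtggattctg
HSPD1: attttctgGAAAGTTCTGGAAccgagcgag
DNAJB6: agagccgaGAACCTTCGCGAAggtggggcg
These lie at chr11:123062170-123062199 (minus strand), chr1:161524458-161524487 (plus), chr14:102087111-102087140 (minus), chr6:44247823-44247852 (plus), chr2:197500059-197500088 (minus) and chr7:157336865-157336894 (plus). The ER stress element, CCAAT and CCACG with 9 bases of any kind between them, was found at 2 of the 86 start sites (2.33%), those of HSPA5 and HSP90B1, against 0.074% of all. HSP90B1 holds a second match that is not shown. Below, the HSPA5 line is chr9:125241385-125241414 (minus strand) and the HSP90B1 line chr12:103930211-103930240 (plus).
HSPA5: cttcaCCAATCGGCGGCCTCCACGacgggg
HSP90B1: cctgaCCAATCGGAAGGAGCCACGcttcgg
The E2F element was searched as TTTCCCGC, TTTGGCGC, TTTCGCGC or TTTGCCGC and found at 2 of the 86 start sites (2.33%), those of DNAJC9 and DNAJC6, against 2.79% of all. In DNAJC9 it begins 15 bases before the start site, and in DNAJC6 it begins 195 bases before it. The 30 bases shown are chr10:73247256-73247285 (minus strand) for DNAJC9 and chr1:65309337-65309366 (plus) for DNAJC6.
DNAJC9: ccctgggctttttggGCGCGAAAaagaagc
DNAJC6: gggccagcggcTTTGGCGCtgccctgctgc
A match describes these letters in this window and not binding. A gene without a match may still hold an element in other letters or farther away.

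As a set the chaperone genes were little changed, and their calls were no more frequent than among all genes. Of the 73 genes 25 passed an adjusted p of 0.05 (34.2%), against 39.5% of all genes in the table. Of these 10 were positive (13.7%, against 17.3% of all genes) and 15 negative (20.5%, against 22.2%). The median log2 fold change of the set was -0.01, against -0.03 over all genes. In bulk RNA fewer cells of a kind and less RNA per cell cannot be told apart. The table has a median level of 23.5 CPM, and of the 49 chaperone genes that reach it 19 were called (38.8%), against 51.9% of all genes at those levels. In size too the changes were small: the median called chaperone gene differed by 1.16-fold, against 1.26-fold over all called genes, and 14 of the 25 differed by less than 1.2-fold. The other 11 reached 1.2-fold, against 4060 of the 6244 called genes of the table. Only HSPB1, DNAJC15 and HSPA6 were called with a change of at least 1.5-fold, 3 of 73 genes against 1474 of all 15794. The split by direction depended on the centre: taken relative to the median of 77 ribosomal protein genes, which lay at -0.08, 22 chaperone genes were positive and 10 negative, beside 26.8% positive and 16.1% negative of all genes.

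**Figure D1:**
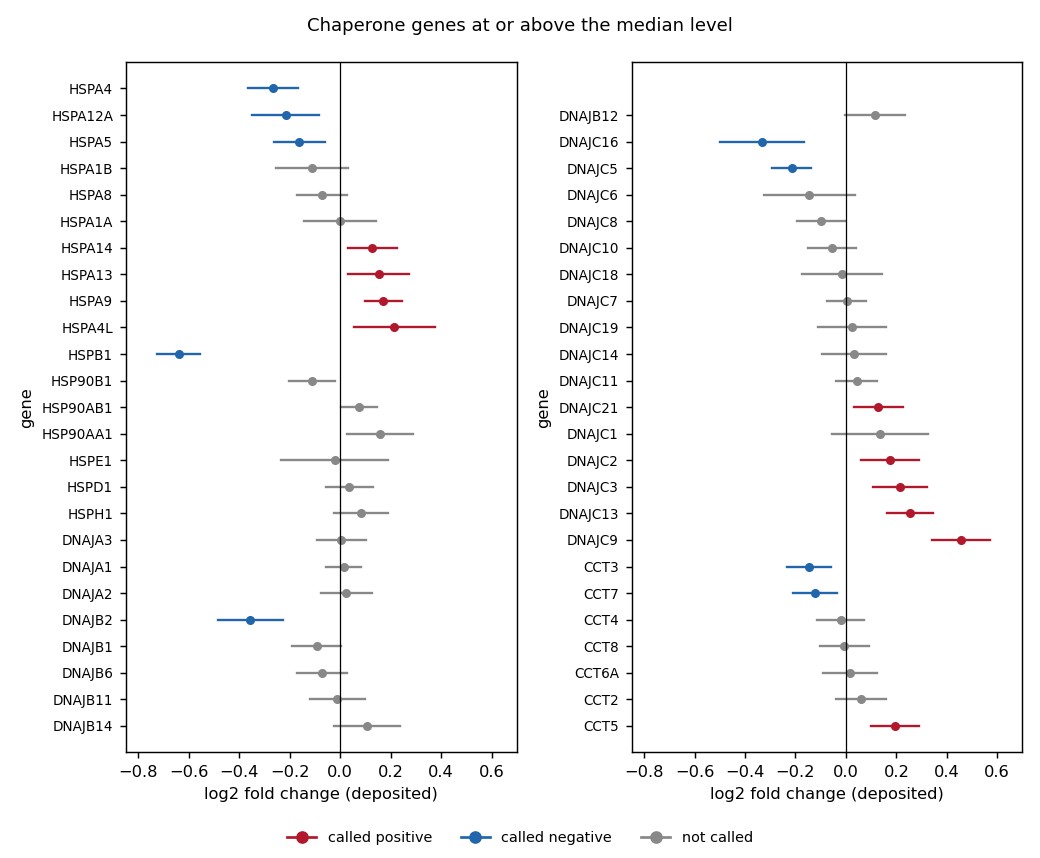
Log2 fold change in the authors' deposited table (horizontal axis) of the 49 chaperone genes at or above 23.5 CPM, grouped by family, with points for the value and bars for approximate 95% intervals. HSPB1 lies farthest to the negative side and DNAJC9 farthest to the positive side, and most bars cross or touch 0.

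The precision depended on the level. The 73 genes ranged from 0.204 CPM (HSPB8) to 3520 CPM (HSP90AA1), with 9 under 1 CPM. For genes of the table between 8 and 9 log2 CPM the median approximate SE was 0.042, so that a change had to exceed about 1.06-fold for its interval to leave out 0, whereas between -2 and -1 log2 CPM it was 0.61 and about 2.30-fold. The SE of each chaperone gene lay between 0.811 and 1.80 times the median of genes at the same level, so none had an SE far below what its level gives.

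**Figure D2:**
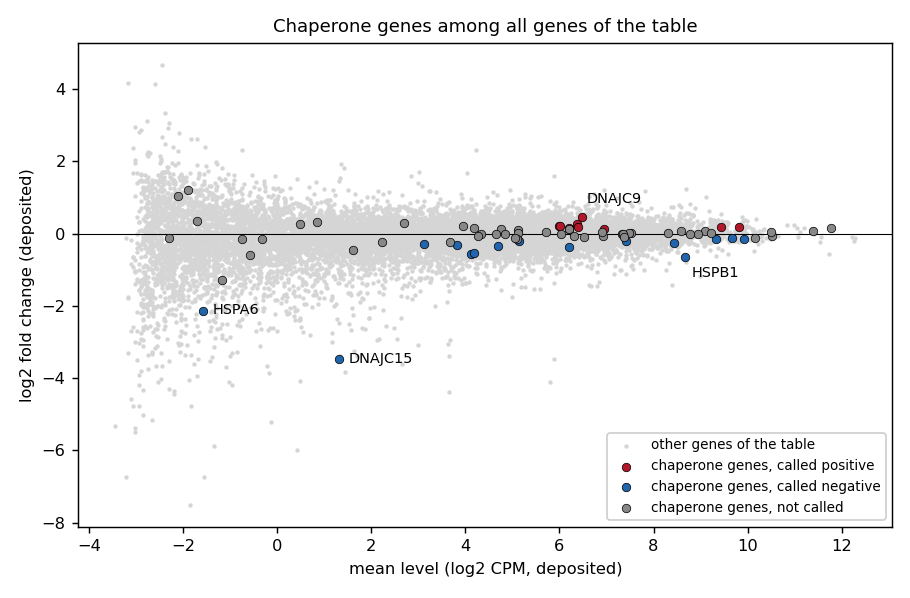
Log2 fold change (vertical axis) against mean level in log2 CPM (horizontal axis) for all 15794 genes of the authors' deposited table, with the 73 chaperone genes as outlined points coloured by call. Most chaperone genes form a narrow band near 0, and DNAJC15 and HSPA6 lie far below it at low levels.

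The Hsp70 genes went both ways, with 4 of 13 positive (30.8%, against 17.3% of all genes) and 4 negative (30.8%, against 22.2%). The other 5 were not called. Of the 10 Hsp70 genes at or above 23.5 CPM 70% were called, against 51.9% of all genes there. The main constitutive Hsp70 of the cytosol, HSPA8, did not pass the test at 1462 CPM (log2 fold change -0.07, interval -0.17 to 0.03, adjusted p = 0.290 by the authors' edgeR test). HSPA1A and HSPA1B, the classic stress-induced Hsp70 genes, lie at chr6:31815464-31817946 and chr6:31827735-31830255 (GRCh38, GENCODE 29, both plus strand). They were at 28.8 and 33.2 CPM and their log2 fold changes, -0.0015 and -0.11 by the authors' deposited table, were not called. Their coding sequences differ at 4 of 1926 bases, so the division of reads between the pair is uncertain, but both intervals exclude a change of 1.2-fold. HSPA1L next to them, which is best known from testis, had 1.80 CPM and was not called.

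Of the called Hsp70 genes, the mitochondrial HSPA9, which pulls proteins through the inner membrane and works in iron-sulphur cluster assembly, had a log2 fold change of 0.17 at 908 CPM (adjusted p = 3.82e-05 in the authors' deposited table). The ER member HSPA5 (BiP) had -0.16 at 644 CPM (adjusted p = 0.00682), with an interval of -0.26 to -0.06. The exchange factors HSPA4 and HSPA4L lay on opposite sides. HSPA4 (chr5:133051962-133106449, plus strand) was negative at -0.27 and 348 CPM (adjusted p = 1.66e-06), and HSPA4L, known mainly from testis and also induced by osmotic stress, was positive at 0.21 and 64.3 CPM (adjusted p = 0.0283). None of the 4 positive Hsp70 genes was called once trends of fold change on transcript length and GC content were removed, HSPA9 coming closest (adjusted p = 0.0533), while HSPA4, HSPA5, HSPA6 and HSPA12A still were. The log2 fold changes of the positive genes were then 0.09 for HSPA9, 0.06 for HSPA14 and 0.01 for both HSPA4L and HSPA13. Centred on ribosomal protein genes, HSPA5 and HSPA12A were no longer called. The ribosome-associated HSPA14 and the microsomal HSPA13 were positive by small amounts, at 0.13 (adjusted p = 0.0337) and 0.15 (adjusted p = 0.0428) in the authors' deposited table. HSPA12A, a distant relative of the family, was negative at -0.22 (adjusted p = 0.00628), and its paralogue HSPA12B did not pass at -0.45 and 3.05 CPM (adjusted p = 0.0702).

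HSPA6, a strictly stress-induced Hsp70 whose promoter element is shown above, was negative with a log2 fold change of -2.13 (adjusted p = 0.00420), but at a mean level of 0.334 CPM. Its interval ran from -3.39 to -0.87, and HSPA7, a pseudogene near it with a similar sequence, may share reads with it. The other genes with a match to the heat shock element as searched were not called in the authors' deposited table. HSP90AA1 was at 0.16 (adjusted p = 0.0511), HSP90AB1 at 0.07, HSPD1 at 0.04, DNAJB6 at -0.07 and HSPA8 at -0.07. A list of 10 genes taken here as heat-inducible adds HSPA1A, HSPA1B, HSPB1, HSPH1, HSPE1 and DNAJB1 to HSPA6, HSPA8, HSP90AA1 and HSPD1. It counts HSPA8 although that gene is mainly constitutive. Of the 10, only HSPA6 and HSPB1 were called, both negative. That was 20% of the 10, against 39.5% of all genes called in either direction.

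None of the 5 Hsp90 genes was called (0%, against 39.5% of all genes), although they include the most abundant members, HSP90AA1 and HSP90AB1. Cytosolic HSP90AA1, the inducible isoform, was at 3520 CPM with a log2 fold change of 0.16 (interval 0.03 to 0.29). The constitutive HSP90AB1 was at 2684 CPM with 0.07 (adjusted p = 0.0985), and HSP90B1, the ER isoform GRP94, at 1145 CPM with -0.11 (adjusted p = 0.0526), all in the authors' deposited table. Whether they were called depended on the setting. With p-values readjusted over the rows of the table, HSP90AA1 passed as positive and HSP90B1 as negative. Centred on the median gene or on ribosomal protein genes, both HSP90AA1 and HSP90AB1 were positive. With the length and GC trends removed HSP90AB1 was positive at 0.09 (adjusted p = 0.0391), HSP90B1 negative at -0.17 (adjusted p = 0.00134) and HSP90AA1 not called. The pseudogenes HSP90B2P and HSP90AB4P, at 19.2 and 1.41 CPM, were not called, and reads of the genes they derive from may be counted in them.

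Among the 4 small heat shock proteins HSPB1 (Hsp27), which holds unfolding proteins and binds actin, was the sole called gene (25%, against 39.5% of all genes). It lies at chr7:76302544-76304295 (plus strand) and was negative by 1.56-fold at 406 CPM (log2 fold change -0.64, interval -0.73 to -0.55, adjusted p = 2.49e-46 in the authors' deposited table). No chaperone gene of 23.5 CPM or more changed further. The muscle-type HSPB6, HSPB8, a partner of BAG3, and the testis gene HSPB9 had between 0.204 and 0.803 CPM, and their intervals were wide, from -0.91 to 0.61 for HSPB6 to -1.83 to 1.59 for HSPB8. HSPB1 also has the highest GC content of the chaperone genes of 23.5 CPM or more, 64.3% in its longest annotated transcript. Without the length and GC trends its log2 fold change was -0.45 (adjusted p = 2.48e-23).

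The chamber-forming chaperonins changed by small amounts. HSPD1 had 1445 CPM and HSPE1 65.2 CPM, and the authors' deposited table puts their log2 fold changes at 0.04 (adjusted p = 0.622) and -0.02 (adjusted p = 0.906). The genes lie head to head on chromosome 2 and share 281 exon bases on opposite strands, and HSPE1 also shares 192 with the read-through gene HSPE1-MOB4, so the level of HSPE1 is uncertain. The exchange factor HSPH1 (Hsp110) had 381 CPM and a log2 fold change of 0.08 (adjusted p = 0.271). Thus 0 of these 3 genes were called (0%, against 39.5% of all genes). The CCT ring folds actin and tubulin and holds each of its subunits in equal number. Of the 7 subunits in the rule CCT5 was positive at 0.19 (adjusted p = 2.71e-04), CCT3 negative at -0.15 (adjusted p = 0.00380) and CCT7 negative at -0.12 (adjusted p = 0.0198). CCT2, CCT4, CCT6A and CCT8 lay between -0.02 and 0.06 and TCP1 at 0.02, and none of these was called. The share called among the 7 was 42.9%, against 39.5% of all genes. The range over the ring was thus -0.15 to 0.19 on the log2 scale, and CCT5, the farthest from 0, changed by 1.14-fold. CCT5 shares 1757 of its 5839 exon bases with the antisense gene AC012640.4, so without stranded counting its value is uncertain. Levels per kilobase of the longest annotated transcript ran from 187 CPM per kb for CCT5 to 450 CPM per kb for CCT3, with TCP1 at 280 CPM per kb. CCT3 and CCT7, the called negative subunits, have a GC content of 51.2% and 51.3%, against 43.1% to 45.9% for the other 5, and without the length and GC trends neither was called (-0.10 and -0.07, adjusted p = 0.0650 and 0.240), nor was either when centred on ribosomal protein genes, where CCT2, TCP1, HSPD1 and HSPH1 were positive.

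J-domain proteins of the A type resemble bacterial DnaJ throughout and act as general partners of Hsp70. None of the 4 was called in the authors' deposited table (0%, against 39.5% of all genes), and DNAJA1 was positive when centred on ribosomal protein genes. DNAJA1 at 316 CPM, DNAJA2 at 185 CPM and the mitochondrial DNAJA3 at 179 CPM lay at 0.01, 0.02 and 0.01 on the log2 scale, and the widest interval, that of DNAJA2, ran from -0.08 to 0.13. DNAJA4 had 0.269 CPM, and its interval, -0.18 to 2.58, was too wide to place it.

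Of the 11 B-type genes 4 were negative (36.4%, against 22.2% of all genes), 0 positive (against 17.3%) and 7 not called. With the length and GC trends removed DNAJB12 was positive at 0.16 (adjusted p = 0.0234), and centred on ribosomal protein genes DNAJB12 and DNAJB14 were. DNAJB4, a partner of Hsp70 in muscle and other tissues, had a log2 fold change of -0.55 at 17.4 CPM (adjusted p = 1.78e-08 in the authors' deposited table). DNAJB2 (chr2:219279267-219286900, plus strand), which carries ubiquitin-interacting motifs and sends clients to the proteasome, had -0.36 at 74.1 CPM (adjusted p = 6.85e-07). DNAJB9 (ERdj4), a target of the unfolded protein response, had -0.32 at 14.2 CPM (adjusted p = 0.00459), and DNAJB5 -0.30 at 8.74 CPM (adjusted p = 0.0487). DNAJB9 shares 183 exon bases with THAP5 on the opposite strand, a gene that was positive at 0.56 and 29.2 CPM, so without stranded counting its value is uncertain. DNAJB1 (Hsp40), the heat-inducible partner of HSPA1A, did not pass at -0.09 and 91.7 CPM (interval -0.19 to 0.00). DNAJB11, DNAJB12, DNAJB14 and DNAJB6 lay between -0.07 and 0.12 without being called, and DNAJB7 and DNAJB13 had under 1 CPM. DNAJB5 was no longer called at a threshold of 0.01 or centred on the median gene or on ribosomal protein genes, nor with the length and GC trends removed, where its log2 fold change was nearly as large (-0.275, adjusted p = 0.0631).

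**Figure D3:**
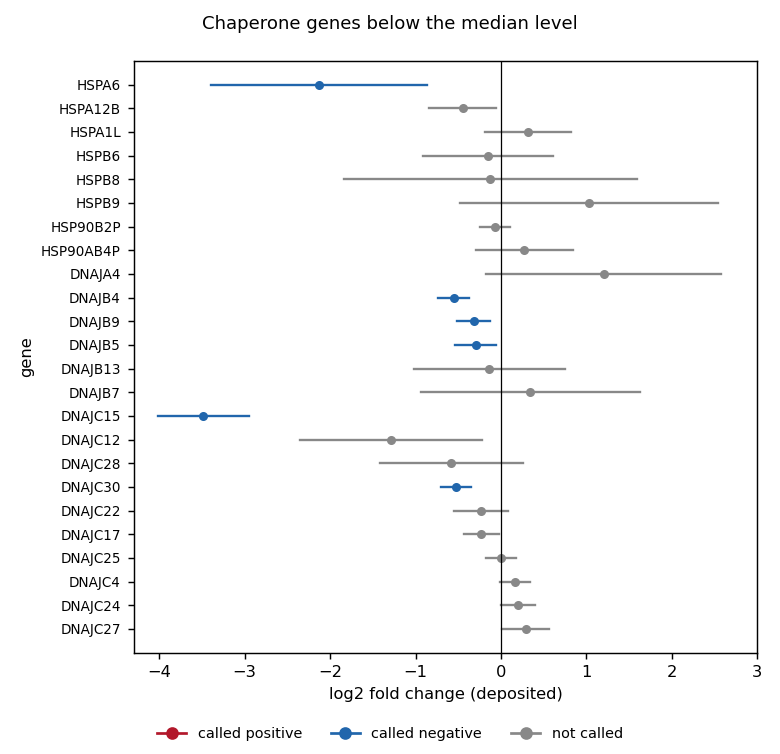
Log2 fold change in the authors' deposited table (horizontal axis) of the 24 chaperone genes below 23.5 CPM, with points for the value and bars for approximate 95% intervals. DNAJC15 is set apart at -3.48, the 6 called genes are all negative, and the widest bars belong to genes under 1 CPM. Of all 7897 genes of the table below that level 732 were positive and 1416 negative.

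The C type holds proteins that share little beyond the J domain and serve a particular site or client. Of its 26 genes 5 were positive (19.2%, against 17.3% of all genes), 4 negative (15.4%, against 22.2%) and 17 not called. By far the largest change of the whole set was in DNAJC15, a mitochondrial inner membrane protein related to the import motor subunit DNAJC19. DNAJC15 (chr13:43023203-43114224, plus strand, protein coding, ENSG00000120675.5) was negative by 11.2-fold at a mean level of 2.49 CPM (log2 fold change -3.48, interval -4.02 to -2.95, adjusted p = 6.07e-35 in the authors' deposited table). Of all 15794 genes, 44 had a value this low or lower, itself included. Its paralogue DNAJC19 was at 0.02 and 34.9 CPM (adjusted p = 0.831). DNAJC30, a mitochondrial protein that acts on the respiratory chain, was negative at -0.53 and 18.2 CPM (adjusted p = 3.84e-08). It shares 359 exon bases, 14.4% of its own, with BUD23 on the opposite strand. Of 8 mitochondrial members, HSPA9 was positive, DNAJC15 and DNAJC30 negative and HSPD1, HSPE1, DNAJA3, DNAJC11 and DNAJC19 not called. The share called was 37.5%, against 39.5% of all genes.

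DNAJC9, a histone H3-H4 chaperone that recruits Hsp70 to histones, was the largest positive member. It lies at chr10:73183362-73248862 (minus strand) and was positive by 1.37-fold at 88.8 CPM (log2 fold change 0.46, interval 0.34 to 0.57, adjusted p = 2.55e-13 in the authors' deposited table). Its promoter holds the E2F element shown above. DNAJC6 (auxilin), which uncoats clathrin vesicles and whose window also holds the element, was not called at -0.15 and 34.1 CPM (adjusted p = 0.232). A fraction of the DNAJC9 exons, 949 of 3955 bases, overlaps FAM149B1 on the opposite strand, which was at 0.25 and 14.6 CPM and not called (adjusted p = 0.0524). Without the length and GC trends its log2 fold change was 0.45 (adjusted p = 7.23e-13).

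The other positive members of the C type were smaller, and none of them was called without those trends. Their log2 fold changes were then 0.14 for DNAJC2 (adjusted p = 0.0552), 0.10 for DNAJC13, 0.08 for DNAJC3 and -0.02 for DNAJC21. DNAJC13 (RME-8), which acts on endosomes, had a log2 fold change of 0.25 at 83.5 CPM (adjusted p = 5.68e-07 in the authors' deposited table). DNAJC3 (P58IPK), an ER chaperone that is also an inhibitor of the kinase PERK, had 0.21 at 63.5 CPM (adjusted p = 4.24e-04), and the ribosome-associated DNAJC2 (zuotin) 0.17 at 84.2 CPM (adjusted p = 0.0123). DNAJC21, which takes part in maturing the large ribosomal subunit, had 0.13 (adjusted p = 0.0320). On the negative side DNAJC16 had -0.33 at 26.0 CPM (adjusted p = 4.76e-04), and DNAJC5 (cysteine string protein), a chaperone of synaptic and secretory vesicles, -0.21 at 172 CPM (adjusted p = 5.93e-07). The splicing-associated DNAJC8 and DNAJC17, at -0.10 and -0.23, did not pass (adjusted p = 0.108 and 0.0721), nor did DNAJC12 at -1.29 and 0.442 CPM (adjusted p = 0.0538). DNAJC7, a partner of Hsp70 and Hsp90, lay at 0.00 with an interval of -0.08 to 0.08.

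**Figure D4:**
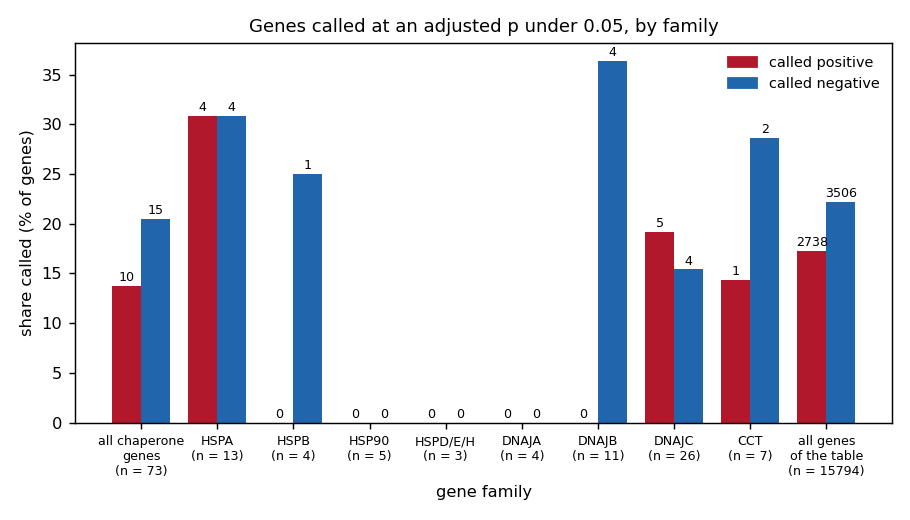
Share of genes called at an adjusted p under 0.05 in the authors' deposited table (vertical axis, percent) in each family, positive and negative, with the number of genes above each bar. The whole set (10 positive and 15 negative of 73) lies below all genes of the table (2738 and 3506 of 15794), the HSPA genes have 4 calls on each side, and the HSP90, HSPD, HSPE, HSPH and DNAJA genes have none.

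Of 7 genes of the ER lumen, HSPA5 and DNAJB9 were negative, DNAJC3 was positive, and HSP90B1, DNAJB11, DNAJC1 and DNAJC10 were not called. That was 28.6% negative, against 22.2% of all genes, and 14.3% positive, against 17.3%. With the length and GC trends removed the positive calls of DNAJC3 (0.08, adjusted p = 0.228) and HSPA13 (0.01) ended. Of the 7 genes 4 were then negative, beside 22.8% of all genes. These were HSPA5 at -0.20, DNAJB9 at -0.38, HSP90B1 at -0.17 (adjusted p = 0.00134) and DNAJC10 at -0.27 (adjusted p = 2.71e-07). HSPA5 and HSP90B1, whose ER stress elements are shown above, lay at -0.16 and -0.11 on the log2 scale in the authors' deposited table. The full 250 bases before the start site of HSPA5, chr9:125241344-125241593 (minus strand), are shown because that gene is the standard readout of ER stress, with the element in capitals.
HSPA5: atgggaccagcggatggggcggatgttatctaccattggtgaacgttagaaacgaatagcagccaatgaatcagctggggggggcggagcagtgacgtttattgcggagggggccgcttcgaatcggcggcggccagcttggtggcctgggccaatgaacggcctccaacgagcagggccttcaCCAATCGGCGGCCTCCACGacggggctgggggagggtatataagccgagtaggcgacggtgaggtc
Of 21 other ER folding and unfolded protein response genes, 5 were positive (23.8%, against 17.3% of all genes) and 6 negative (28.6%, against 22.2%). SEL1L, a part of the ER degradation machinery, was positive at 0.52 and 84.6 CPM (adjusted p = 7.01e-18), and the disulphide isomerase gene PDIA4 negative at -0.28 and 309 CPM (adjusted p = 4.20e-10). PDIA3, another isomerase gene, was negative at -0.13, but its SE was only 0.365 times the median of genes at its level, so the p that the authors' deposited table gives it (adjusted p = 2.82e-16) is uncertain.

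The regulators and co-chaperones of the set were mixed as well. None of 5 HSF genes and HSF-binding factors was called (0%, against 39.5% of all genes). HSF1 itself had a log2 fold change of -0.04 at 133 CPM (adjusted p = 0.555 in the authors' deposited table). Of 27 Hsp70 and Hsp90 co-chaperones 7 were positive (25.9%, against 17.3% of all genes) and 7 negative (25.9%, against 22.2%). CDC37, which brings kinases to Hsp90, was negative at -0.44 and 251 CPM (adjusted p = 7.99e-23), and UNC45A, a myosin chaperone, at -0.33 and 119 CPM (adjusted p = 1.50e-12). The immunophilin gene FKBP5 was positive at 0.37 and 83.8 CPM (adjusted p = 3.41e-10). The 13 chaperonin partners were the prefoldin subunits and tubulin cofactors with TCP1 and PDCL3. Of these 2 were positive (15.4%, against 17.3% of all genes) and 4 negative (30.8%, against 22.2%). Among the negative ones were the prefoldin genes PFDN6 at -0.23 (adjusted p = 5.36e-04) and PFDN5 at -0.21 (adjusted p = 7.89e-04). PFDN6 was no longer called once length and GC trends were taken out, and PFDN5 was not when centred on ribosomal protein genes. TBCD was positive at 0.06, with an SE 0.406 times the median of its level that leaves its adjusted p of 7.46e-04 uncertain, and it was not called with the trends removed. Of 13 genes listed for mitochondrial protein quality control 2 were positive (15.4%, against 17.3% of all genes) and 3 negative (23.1%, against 22.2%). The 13 include HSPBAP1, which is not a gene of that kind and was not called at 7.71 CPM. GRPEL2, an exchange factor for HSPA9, was positive at 0.50 and 41.0 CPM (adjusted p = 2.67e-07), SPG7, a subunit of an inner membrane protease, was negative at -0.36 and 76.8 CPM (adjusted p = 7.28e-07), and the protease gene LONP1 was positive at 0.15, with an adjusted p of 3.08e-32 that is uncertain because its SE was 0.292 times the median of its level. Of the 79 genes of these 5 lists, 16 were positive (20.3%, against 17.3% of all genes) and 20 negative (25.3%, against 22.2%). Of those at or above the median level 50.7% were called, against 51.9% of all genes there, and their log2 fold changes had a median of -0.04.

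The direction of a call went along with base composition. For chaperone genes of 23.5 CPM or more the GC content of the longest transcript had a median of 42.4% in the 10 positive genes (34.9% to 45.9%), 51.2% in the 9 negative genes (42.5% to 64.3%) and 45.5% in the 30 genes not called. Across these 49 genes, log2 fold change and GC content had a Pearson r of -0.46 and a Spearman rho of -0.37, and across all 7650 genes at those levels with an annotated transcript the values were -0.32 and -0.37. These are descriptions across genes, which come from the same libraries and are not independent. With the trends on length and GC removed, 6 chaperone genes were positive and 16 negative, beside 15.7% and 22.8% of all genes. Of the 10 positive genes 2, DNAJC9 and CCT5, were still called, and of the 15 negative genes 12 were. Among the 8 positive calls that ended were DNAJC13 (adjusted p = 0.0879), HSPA9 (0.0533) and DNAJC3 (0.228). HSPB1, DNAJC15, HSPA4, DNAJB2 and DNAJC5 were still called negative.

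**Figure D5:**
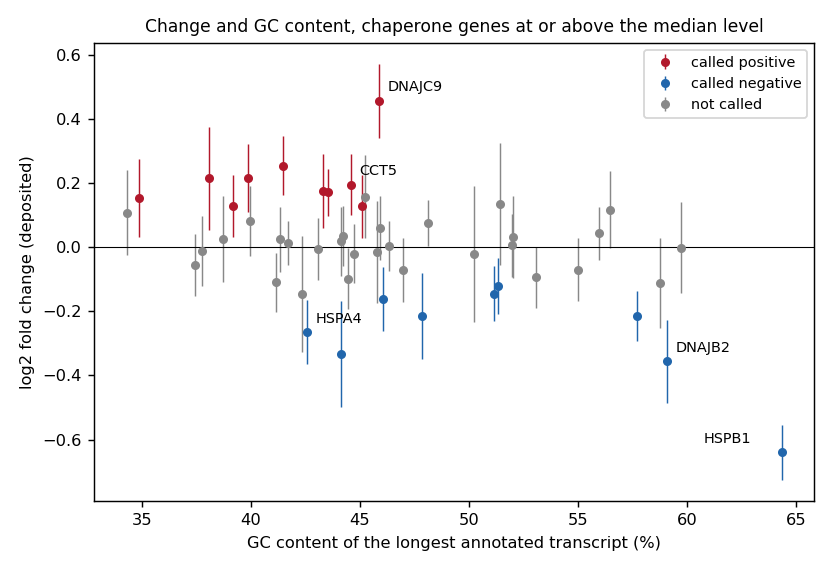
Log2 fold change in the authors' deposited table (vertical axis, bars for approximate 95% intervals) against GC content of the longest annotated transcript (horizontal axis, percent) for the 49 chaperone genes at or above 23.5 CPM. All 10 positive genes lie at or below 45.9% GC, and HSPB1 lies at the far right at 64.3%.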

How the data were processed

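Polyadenylated RNA of 3 TFDP1 and 3 control samples was sequenced. Per the submitters' processing notes the tools were Trimmomatic, HISAT2, featureCounts and edgeR, with hg38 and dm6 as builds and no versions. The log2 fold changes and log2 CPM levels are the authors' values, as deposited, and the sources used here do not say how libraries were scaled, which group was on top or whether counting used strand. The p-value and FDR columns are the authors' as well, per the file headers, and come from a likelihood ratio, deposited as a score with 1 degree of freedom. There was no value per sample, so the depth is unknown and replicates could not be compared.

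A gene was called when the authors' FDR was under 0.05. The chaperone genes and all lists were chosen with earlier results of these data known. Any member could be named. Fuller values were given for up to 8 called members per direction with the largest change at or above the median level, the 3 largest called below it, the 3 of each family and wider list with the smallest p, TCP1, HSF1 and TFDP1. Alternatives changed the threshold, the adjustment, the level and the fold minimum. Others recomputed p from the approximate SE, after re-centring or after lowess (span 0.3) on log2 length and then GC content of the longest GENCODE 29 transcript (14777 genes, 93.6%). The recomputation was tested on simulated data. Promoter sequences are RefSeq's (GRCh38.p14), and positions are GENCODE 29's on GRCh38. Python 3.11.15, pandas 2.3.3, numpy 2.4.6, scipy 1.17.1, statsmodels 0.14.6 and matplotlib 3.10.9 were used.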

Additional observations from a re-analysis of the deposited data

How the results depend on the processing

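The 10 positive and 15 negative calls among chaperone genes depended on the settings mostly on the positive side. A threshold of 0.01 left 5 positive and 13 negative, beside 13.1% positive and 17.4% negative of all genes. A change of at least 1.2-fold left 1 (DNAJC9) and 10, beside 10.4% and 15.3% of all genes. Removing length and GC trends gave 6 and 16, beside 15.7% and 22.8%. Centred on ribosomal protein genes there were 22 positive and 10 negative, beside 26.8% and 16.1% of all genes. The median log2 fold change of the chaperone genes was then 0.0767, against -0.0059 as deposited. In the 79 genes of the wider lists that centre gave 26 positive and 10 negative, against 16 and 20 as deposited, with a median of 0.0394, against -0.0433. A change of at least 1.2-fold left 5 positive and 8 negative genes of those lists. Leaving out genes below the median level left 10 positive and 9 negative of 49 chaperone genes, since 6 negative ones lie below it. Of all genes at those levels 25.4% were positive and 26.5% negative, and of the 7897 genes below them 732 were positive and 1416 negative. At a threshold of 0.10, with p readjusted over the rows, or centred on the median gene, these counts stayed within 1.5 times. HSPB1, DNAJB2, HSPA4, DNAJC16 and DNAJC9 were called in the same direction under each alternative run. DNAJC15, DNAJB4, DNAJB9, DNAJC30 and HSPA6 were under each but the one that leaves them out for their level. No paired analysis was possible because the table holds no value per sample, and no replicate could be left out for the same reason. Precision is poorest for the 9 chaperone genes under 1 CPM.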
